A study of Mus musculus with 12 samples.

Results

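The genes described here are Reln, which encodes the secreted glycoprotein reelin, Lrp8 (also known as Apoer2) and Vldlr, which encode its receptors, and Dab1, which encodes the adaptor protein that carries the signal inside the cell. They were chosen as the probe sets annotated with exactly one of these symbols, which gave 1 probe set for each, so that they are 4 of the 19937 genes measured by at least 1 probe set of a single symbol. Their RNA was measured with Affymetrix Mouse Gene 1.0 ST arrays in cortical neurons of C57BL6 mice that carried GFP and were isolated by FACS. The groups were interneurons at P10 (IN P10) and P0 (IN P0) from Nkx2-1Cre;RCE:LoxP cortices, and pyramidal cells at P12 (Pyr P12) and P0 (Pyr P0) from NexCre;RCE:LoxP somatosensory cortices, with 3 arrays in each of the 4 groups. RCE is a reporter that makes GFP after recombination by Cre, so sorting on GFP selected for cells that had carried Cre. Nkx2-1Cre marks the lineage of the medial ganglionic eminence and neighbouring progenitors, which also gives rise to oligodendrocyte precursors, and does not cover interneurons of the caudal ganglionic eminence. NexCre marks young excitatory neurons of the cortex. As labelled, the populations thus also differed in the region taken, and IN P10 and Pyr P12 in age by 2 days, and neither can be told apart from the difference in cell type.

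Reelin is released into the extracellular space and binds the receptors ApoER2 and VLDLR, which belong to a family of lipoprotein receptors. Binding leads kinases of the Src family to phosphorylate Dab1, which recruits further adaptors and phosphatidylinositol 3-kinase and is then degraded. In the embryonic cortex reelin comes mainly from Cajal-Retzius cells of the marginal zone and steers the layering of migrating pyramidal cells, whereas in the postnatal cortex it comes largely from interneurons, among them somatostatin cells and neurogliaform cells, and acts on dendrites, synapses and NMDA receptors.

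The upstream sequences of Reln and Dab1 are shown because these were the members with called differences. They were read from a RefSeq promoter table of the assembly GRCm38.p6, in which all 4 members matched with 8 start sites, and hold the 250 bases before the annotated start, on the strand of the gene, 5′ to 3′. Capitals mark the letters GGGCGG, a core of the GC box bound by Sp1 and related factors, searched on both strands, and no match overlapped another. The Reln window lies at chr5:22344706-22344955 on the minus strand, and the Dab1 windows of different annotated starts lie at chr4:103619250-103619499 and chr4:104367288-104367537 on the plus strand.
Reln: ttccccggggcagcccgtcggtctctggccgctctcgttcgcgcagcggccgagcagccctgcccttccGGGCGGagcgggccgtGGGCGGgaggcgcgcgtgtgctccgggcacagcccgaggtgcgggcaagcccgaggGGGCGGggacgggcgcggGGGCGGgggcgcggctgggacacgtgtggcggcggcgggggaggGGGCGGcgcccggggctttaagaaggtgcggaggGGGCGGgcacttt
Dab1, first start: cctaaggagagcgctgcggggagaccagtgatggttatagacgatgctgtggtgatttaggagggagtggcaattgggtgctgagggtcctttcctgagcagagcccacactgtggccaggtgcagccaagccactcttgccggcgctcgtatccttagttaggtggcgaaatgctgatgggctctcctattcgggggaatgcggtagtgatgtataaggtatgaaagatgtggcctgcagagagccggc
Dab1, second start: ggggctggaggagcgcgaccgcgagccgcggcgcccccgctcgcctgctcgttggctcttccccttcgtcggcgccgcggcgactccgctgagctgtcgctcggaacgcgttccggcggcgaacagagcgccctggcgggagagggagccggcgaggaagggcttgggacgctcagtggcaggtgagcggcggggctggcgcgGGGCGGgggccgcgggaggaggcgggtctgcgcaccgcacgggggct
The Reln window had 80.0% GC, 37 CpG and 6 matches, the first Dab1 window 56.4% GC, 10 CpG and 0 matches, and the second Dab1 window 78.0% GC, 40 CpG and 1 match. Over 32851 windows in the table the medians were 52.4% GC and 6 CpG, and 32.7% held at least 1 match. The arrays do not tell which start was used, and a match is a description of the letters and not of a bound site.

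Reln was the member with the widest span between groups, high in interneurons at both ages and lower in pyramidal cells, where it fell further with age. The deposited values are log2 signals after robust multi-array average (RMA). On this scale Reln had 12.95, 13.04 and 13.08 in IN P10, against 12.81, 12.87 and 12.97 in IN P0. It had 9.25, 9.21 and 9.27 in Pyr P12, against 10.9, 10.83 and 10.73 in Pyr P0. All 6 interneuron arrays lay above all 6 pyramidal arrays, the interneuron ages overlapped and the pyramidal ages did not. All 4 members exceeded the background level, set at the 95th percentile of the 1208 probe sets for odorant and vomeronasal receptors (7.13 to 7.45 across arrays), on all 12 arrays.

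**Figure D1:**
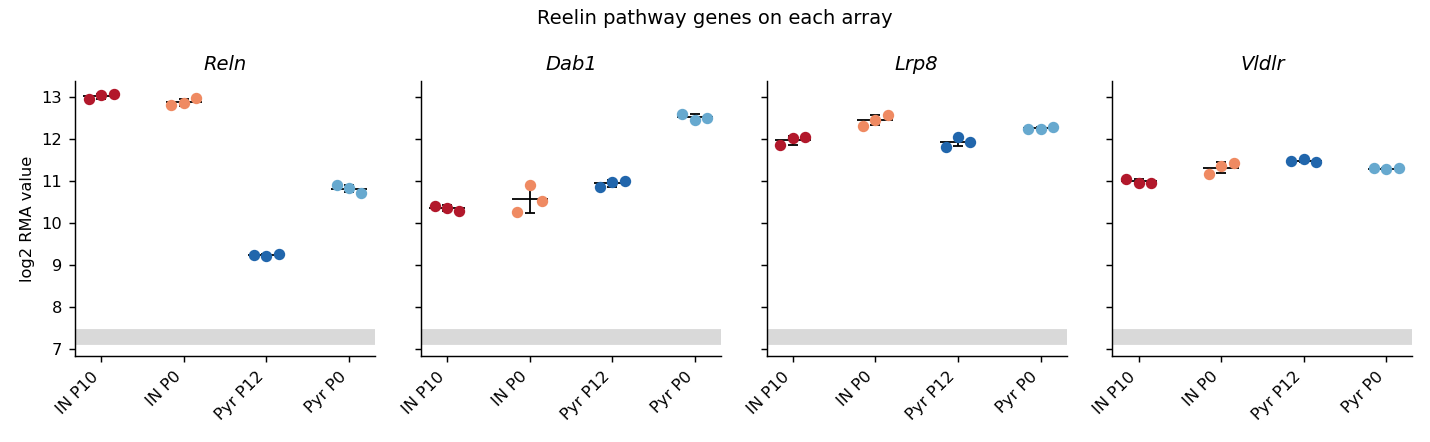
Log2 RMA values (vertical axis) of Reln, Dab1, Lrp8 and Vldlr in IN P10, IN P0, Pyr P12 and Pyr P0; each point is an array, the lines and bars are the mean ± SD (n = 3), and the grey band is the range of the background level. Reln separates the populations (means 13.02 and 12.88 in IN, 9.24 and 10.82 in Pyr), Dab1 is highest in Pyr P0 (12.53), and the receptors stay between 10.96 and 12.58 on every array.

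A difference was called when its adjusted p from limma, over 22961 probe sets, was under 0.05 and its fold change over 2. Reln averaged 13.02 ± 0.06 in IN P10 and 9.24 ± 0.03 in Pyr P12 (SD, n = 3 each), a log2 difference of 3.78 (95% CI 3.65 to 3.91, 13.7-fold, limma adjusted p = 3.11e-13). At P0 it averaged 12.88 ± 0.08 in IN P0 and 10.82 ± 0.08 in Pyr P0, a log2 difference of 2.06 (1.93 to 2.19, 4.17-fold, limma adjusted p = 5.21e-11). Reelin RNA was therefore higher in interneurons at both ages. In bulk samples such as these, fewer cells with the RNA and less RNA per cell cannot be told apart.

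With age, Reln fell by 1.58 on the log2 scale in Pyr P12 against Pyr P0 (95% CI -1.71 to -1.45, 2.99-fold, limma adjusted p = 9.52e-11). In IN P10 against IN P0 the log2 difference was 0.14 (0.01 to 0.27, limma adjusted p = 0.0729) and was not called. The test of the difference between these age changes, the change in interneurons minus the change in pyramidal cells, gave 1.72 on the log2 scale (1.54 to 1.90, limma adjusted p = 1.02e-08). The order of the Reln levels was IN P10, IN P0, Pyr P0 and Pyr P12, in which only the neighbours IN P10 and IN P0 did not differ beyond their spread.

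Markers of other cells that could carry reelin RNA were read beside this result. Of 7 pan-interneuron genes (Gad1, Gad2, Slc32a1 and Dlx genes), 7 were higher in IN than in Pyr at both ages and 5 fell with age in pyramidal cells, with a median log2 difference between the pyramidal ages of -1.55. Their mean log2 value per array was 7.68 to 7.81 in Pyr P12 and 8.73 to 9.21 in Pyr P0, so this mean moved the same way as Reln. Slc32a1 (-0.19) and Dlx6 (0.01) were not called between the pyramidal ages. Among 7 genes of medial ganglionic eminence interneurons, 1 was called lower there (Lhx6, -1.44) and 0 higher. The median log2 difference of that list was -0.3, and Sst, the somatostatin gene, had -0.92 and was not called. Of 14 genes of caudal ganglionic eminence interneurons, 2 were called higher and 3 lower in Pyr P12 against Pyr P0, with a median log2 difference of -0.32. Npy averaged 13.13 in Pyr P0 and 9.12 in Pyr P12, whereas Lamp5 averaged 7.32 and 12.10. In IN P0 against Pyr P0, 0 of the 14 were higher and 3 lower, and in IN P10 against Pyr P12, 3 were higher and 3 lower. Of 6 genes of Cajal-Retzius cells, 0 were called in the 4 comparisons by limma or by SAM, the test that the methods name, and 3 reached an unadjusted p under 0.05. Their mean log2 value ran from 7.11 to 7.33 over the 12 arrays, near background. Lhx5, Ebf2 and Nhlh2 were above background on no array, and Trp73, Lhx1 and Ebf3 had group means between 7.42 and 7.93.

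For a comparison with these markers that does not depend on the log scale, the background level was subtracted from the linear signals. The Reln signal in Pyr P12 was then 5.39% of that in IN P10, against a median of 1.91% (range -0.194% to 2.92%) over the 7 pan-interneuron genes. In Pyr P0 it was 22.4% of that in IN P0, against a median of 8.13% (4.33% to 12.1%). The Reln share lay above that of each of the 7 genes at both ages. The part of interneuron RNA in the pyramidal Reln signal was not tested beyond these values.

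**Figure D2:**
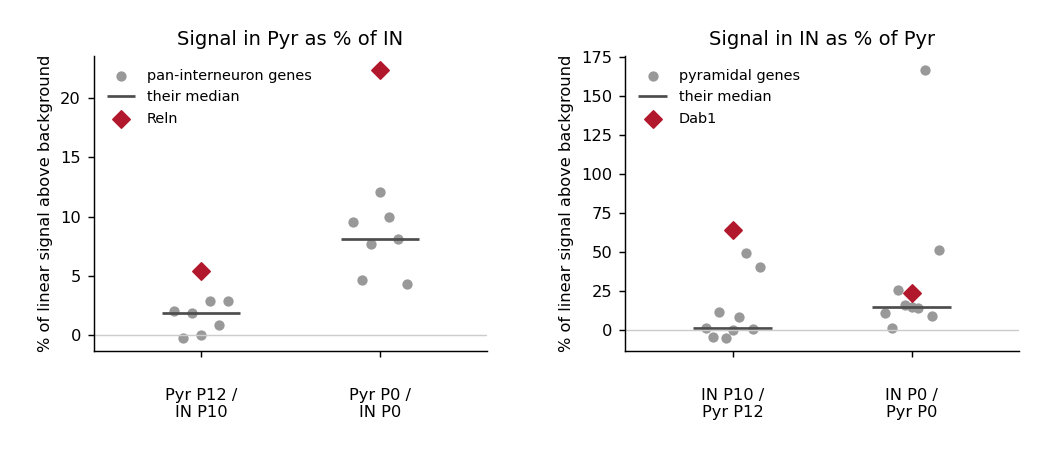
Linear signal above background in one population as a percentage of that in the other: on the left Pyr over IN for Reln (diamond) and 7 pan-interneuron genes (grey points, line at their median), on the right IN over Pyr for Dab1 and 9 pyramidal genes. Reln stands at 5.39% at P12 over P10 and 22.4% at P0, above all 7 interneuron genes, and Dab1 at 64.3% and 24.2%.

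Dab1, the intracellular adaptor, ran the other way between populations and was highest in newborn pyramidal cells. It had log2 values of 10.42, 10.37 and 10.29 in IN P10, against 10.27, 10.9 and 10.53 in IN P0. In Pyr P12 it had 10.85, 10.99 and 11.01, against 12.61, 12.46 and 12.51 in Pyr P0. The 3 Pyr P0 arrays stood above all others, the interneuron ages overlapped, and replicate B of IN P0 was high within its group and overlapped Pyr P12.

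Dab1 averaged 10.95 ± 0.09 in Pyr P12 and 12.53 ± 0.08 in Pyr P0 (SD, n = 3 each). It fell by 1.58 with age in pyramidal cells on the log2 scale (95% CI -1.84 to -1.32, 2.99-fold, limma adjusted p = 7.61e-08). In interneurons it averaged 10.36 ± 0.07 in IN P10 and 10.57 ± 0.32 in IN P0, a log2 difference of -0.21 (-0.46 to 0.05, limma adjusted p = 0.19). When single arrays were left out this difference ran from -0.36 to -0.04, the latter without replicate B of IN P0, so it was unstable in both directions. The age change differed between the populations by 1.37 on the log2 scale (1.01 to 1.74, limma adjusted p = 3.12e-05).

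At P0, Dab1 was lower in interneurons (IN P0 against Pyr P0), with a log2 difference of -1.96 (95% CI -2.22 to -1.70, 3.89-fold, limma adjusted p = 2.57e-08). Between IN P10 and Pyr P12 the difference was -0.59 (-0.84 to -0.33, 1.5-fold, limma adjusted p = 0.00115). The arrays of that older pair did not overlap, but the fold change was under 2 and the difference was not called. Above background, the linear Dab1 signal was 64.3% in IN P10 of that in Pyr P12 and 24.2% in IN P0 of that in Pyr P0. Of 9 pyramidal genes, 7 were lower in IN than in Pyr at both ages, and 4 fell with age in interneurons. The same share over these 9 genes had a median of 1.27% (range -4.56% to 49.4%) at the older ages and of 14.8% (1.31% to 167%) at P0. Dab1 in IN P10 thus stood above each of the 9 genes in its share of the pyramidal signal, whereas in IN P0 it lay within their range. The top of the range at P0 was Cux2 (167%), which averaged 12.06 in IN P0 and 11.35 in Pyr P0 and so was not lower in interneurons. Emx1 (51.5%) and Neurod2 (25.8%) also lay above Dab1 at P0, and all other genes of the list lay below it.

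Lrp8, the gene of the receptor ApoER2, which is known for its link to NMDA receptors at synapses, varied less than 2-fold across the groups. It had log2 values of 11.85, 12.02 and 12.05 in IN P10, against 12.32, 12.46 and 12.58 in IN P0. In Pyr P12 it had 11.82, 12.04 and 11.94, against 12.24, 12.25 and 12.3 in Pyr P0. The older arrays lay below the P0 arrays in both populations, and IN P10 and Pyr P12 overlapped. The log2 difference was -0.48 in IN P10 against IN P0 (95% CI -0.65 to -0.31, limma adjusted p = 0.000138) and -0.33 in Pyr P12 against Pyr P0 (-0.50 to -0.16, limma adjusted p = 0.0027), both under the fold threshold.

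Between populations Lrp8 showed small differences. The log2 difference of IN P10 against Pyr P12 was 0.04 (95% CI -0.13 to 0.21, limma adjusted p = 0.697). At P0 it was 0.19 in IN P0 against Pyr P0 (0.03 to 0.36, limma adjusted p = 0.101), although the arrays of these groups did not overlap. The age change in interneurons minus that in pyramidal cells was -0.15 (-0.39 to 0.08, limma adjusted p = 0.325), and between -0.22 and -0.09 when single arrays were left out. In order of level the groups were IN P0, Pyr P0, IN P10 and Pyr P12. In the main fit neither IN P0 against Pyr P0 nor IN P10 against Pyr P12 had a limma adjusted p under 0.05. With a block on the replicate letter the P0 difference had a limma adjusted p of 0.0371. The intervals of the main fit exclude a difference over 2-fold in every comparison of this gene.

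Vldlr, the gene of the very-low-density lipoprotein receptor, which in the embryonic cortex is known for stopping migrating neurons below the marginal zone, had its lowest values in IN P10. It had log2 values of 11.06, 10.96 and 10.96 in IN P10, against 11.17, 11.35 and 11.43 in IN P0. In Pyr P12 it had 11.49, 11.53 and 11.45, against 11.31, 11.28 and 11.31 in Pyr P0. IN P10 lay below all other arrays and Pyr P12 above them, with IN P0 and Pyr P0 overlapping in between.

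The log2 difference of Vldlr was -0.32 in IN P10 against IN P0 (95% CI -0.46 to -0.18, limma adjusted p = 0.000779), against 0.19 in Pyr P12 against Pyr P0 (0.05 to 0.33, limma adjusted p = 0.0234). The age changes had opposite signs, and the test of their difference gave -0.51 (-0.71 to -0.32, limma adjusted p = 0.000697). The pyramidal value is the less stable, since it was 0.12 with limma adjusted p = 0.136 when each array was centred on its median. Between populations the difference was -0.49 in IN P10 against Pyr P12 (-0.63 to -0.36, limma adjusted p = 2.68e-05) and 0.02 in IN P0 against Pyr P0 (-0.12 to 0.15, limma adjusted p = 0.926). All of these folds were under 2, so that none was called.

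The receptors were also set against each other within each array, reading only how their difference shifted, since signals of different probe sets have no common scale. Lrp8 minus Vldlr was 0.79, 1.07 and 1.09 in IN P10, against 1.15, 1.11 and 1.16 in IN P0. It was 0.33, 0.51 and 0.49 in Pyr P12, against 0.93, 0.97 and 0.99 in Pyr P0. The difference shifted with age by -0.16 in interneurons and by -0.52 in pyramidal cells, towards Vldlr, and the ages did not overlap in either population. The interneuron shift rested largely on replicate A of IN P10, without which it was -0.06 (exact permutation p = 0.2). Between populations it shifted by 0.54 in IN P10 against Pyr P12 and by 0.18 in IN P0 against Pyr P0, again without overlap. With all arrays, each of the 4 shifts had a two-sided exact permutation p of 0.1, the smallest that 3 against 3 arrays can give.

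**Figure D3:**
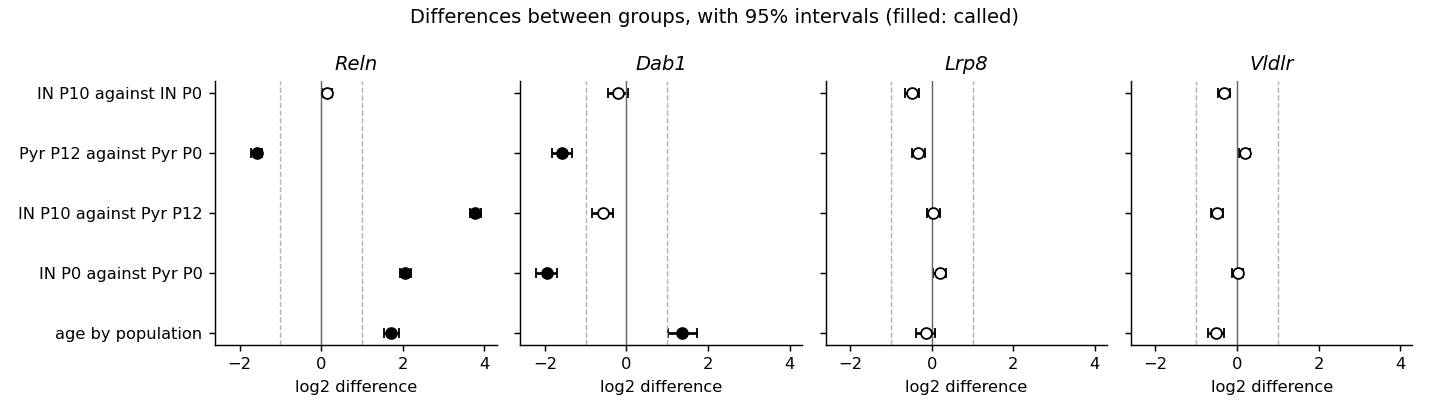
Log2 differences (horizontal axis) of Reln, Dab1, Lrp8 and Vldlr in the 4 comparisons of groups and in the age change of interneurons minus that of pyramidal cells, with 95% intervals; filled points were called and dashed lines mark a 2-fold change. Reln and Dab1 share a difference of -1.58 in Pyr P12 against Pyr P0 and lie on opposite sides of 0 between populations, and all receptor points lie inside the dashed lines.

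Of the 4 members, Reln and Dab1 were called lower between the pyramidal ages, where 9.16% of all probe sets were called, 5.68% higher and 3.48% lower. Between the interneuron ages 0 of 4 were called by limma or SAM (7.04% of all probe sets, 4.19% higher and 2.85% lower), and 3 (Reln, Lrp8 and Vldlr) had an unadjusted p under 0.05. In IN P10 against Pyr P12, 1 of 4 was called, Reln (5.56%, 2.65% higher and 2.91% lower). In IN P0 against Pyr P0, 1 was higher and 1 lower (3.64%, 1.90% higher and 1.74% lower). The age change differed between populations for 2 of 4 members by this rule, both higher (4.86%, 2.24% higher and 2.63% lower). With 4 members these shares say little beyond the values of each gene.

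The other genes of the pathway were read from lists by role, of which 66 of 72 genes were measured and 64 were above background on every array of at least 1 group. Of the 66, 20 were called in at least 1 of the 4 comparisons of groups and 46 in none. The share of all probe sets called in at least 1 of the 4 is not given. The background shares that follow are for single comparisons and cannot be set against this count. Between the interneuron ages 5 were higher and 3 lower in IN P10 (12.1% of them, background 7.04%), and between the pyramidal ages 5 were higher and 5 lower in Pyr P12 (15.2%, background 9.16%). In IN P10 against Pyr P12, 8 were higher and 4 lower (18.2%, background 5.56%), and in IN P0 against Pyr P0, 5 were higher and 4 lower (13.6%, background 3.64%). Among the 16140 probe sets above background on every array of at least 1 group, the called shares were 9.94%, 12.9%, 7.76% and 5.15% in the same order of comparisons. The median size of the log2 difference was 0.35, 0.34, 0.34 and 0.21 over the 66 genes, against 0.30, 0.31, 0.22 and 0.12 over these detected probe sets and 0.16, 0.20, 0.17 and 0.08 over all tested probe sets.

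**Figure D4:**
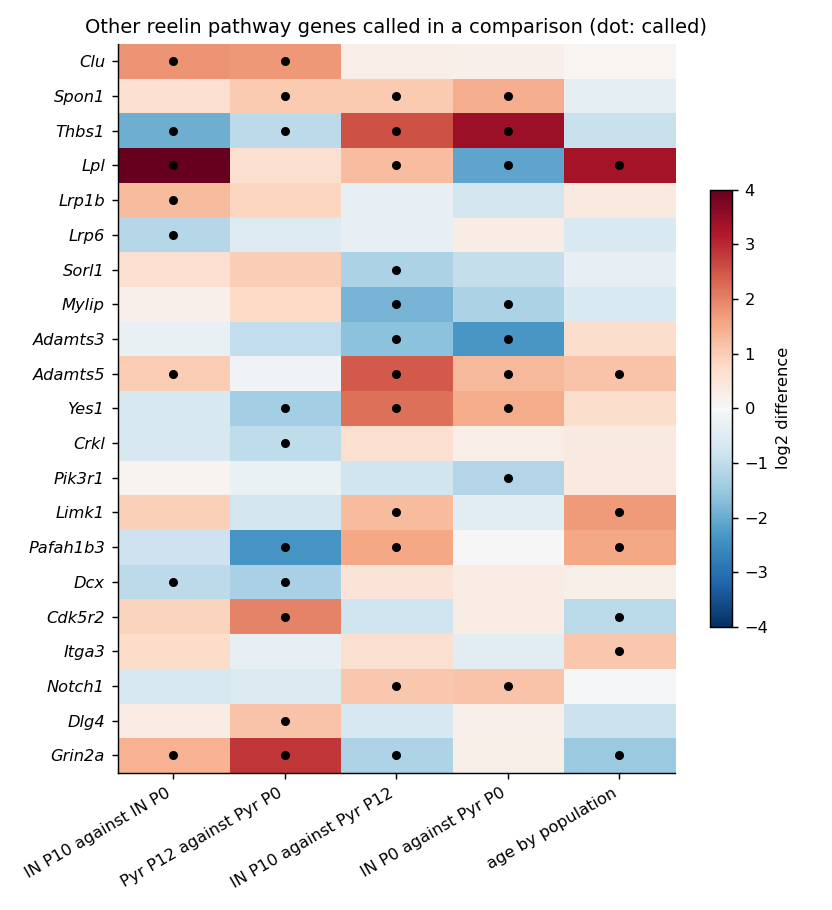
Log2 differences (colour, red higher and blue lower in the group named first) of the 21 other pathway genes called in at least 1 of the 5 columns, with a dot where the difference was called; rows follow the role of the gene from ligands at the top to synaptic partners at the bottom. Lpl has the largest change, 3.99 in IN P10 against IN P0, and Thbs1 is higher in interneurons at both ages, by 2.53 and 3.43.

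Among 6 other ligands and lipid carriers of these receptors, 3 were called in each of the 4 comparisons of groups. Thbs1, which encodes thrombospondin-1, an astrocyte-secreted protein known to promote synapse formation and to bind ApoER2 and VLDLR, averaged 10.71 ± 0.04 in IN P10 and 12.65 ± 0.06 in IN P0 on the log2 scale (SD, n = 3 each), and 8.17 ± 0.13 in Pyr P12 and 9.23 ± 0.26 in Pyr P0. It fell with age by 1.95 in interneurons (limma adjusted p = 3.94e-09) and by 1.05 in pyramidal cells (1.15e-06), and was higher in interneurons by 2.53 at the older ages (3.08e-10) and by 3.43 at P0 (6.68e-11). The pyramidal age change of Thbs1 was just under 2-fold without replicate A (-0.99) or B (-0.97) of Pyr P0 or without replicate A of Pyr P12 (-0.99).

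Lpl, which encodes lipoprotein lipase, an enzyme that splits triglycerides and a ligand of VLDLR, averaged 11.68 ± 0.05 in IN P10 and 7.69 ± 0.11 in IN P0, and 10.46 ± 0.01 in Pyr P12 and 9.81 ± 0.15 in Pyr P0 (log2, SD, n = 3 each). It rose with age in interneurons by 3.99 (15.8-fold, limma adjusted p = 1.3e-12), and the direction of its difference between populations turned, with 1.22 in IN P10 against Pyr P12 (1.93e-08) and -2.12 in IN P0 against Pyr P0 (2.29e-10). The age change differed between populations by 3.34 (2.78e-10). In IN P0 Lpl lay close to background, at 7.59 to 7.81 against levels of 7.2 to 7.25. Its differences against IN P0 are therefore not exact sizes.

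Clu, which encodes the lipoprotein clusterin, rose with age in both populations, by 1.80 in IN P10 against IN P0 (limma adjusted p = 9.34e-09) and by 1.74 in Pyr P12 against Pyr P0 (8.55e-09). Spon1, which encodes the matrix protein F-spondin, was higher in interneurons by 1.05 in IN P10 against Pyr P12 (4.16e-08) and by 1.45 in IN P0 against Pyr P0 (3.13e-09), and higher by 1.04 in Pyr P12 against Pyr P0 (2.64e-08). The 2 values of Spon1 near the 2-fold threshold were not firm: the pyramidal age change was 0.97 after centring and after a second quantile normalization, 1.00 without replicate A of Pyr P0 and 0.99 without replicate C of Pyr P12, and the older population difference was 0.99 without replicate A of Pyr P12.

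Of 10 receptors related to ApoER2 and VLDLR, 3 were called in a comparison of groups. Lrp1b rose by 1.27 (limma adjusted p = 1.68e-09) and Lrp6, a co-receptor for Wnt proteins, fell by 1.15 (8.93e-09) in IN P10 against IN P0. Sorl1, a sorting receptor, was lower in interneurons at the older ages, at -1.28 on the log2 scale (5.76e-07). At P0 its difference was -0.97 (1.59e-05), just under 2-fold, and the test of the difference between its age changes gave -0.31 (0.152). Of 3 genes of receptor handling, Mylip was called. It encodes a ubiquitin ligase that marks VLDLR and ApoER2 for degradation, and averaged 9.12 ± 0.06 in IN P10 and 11 ± 0.06 in Pyr P12, and 8.92 ± 0.09 in IN P0 and 10.20 ± 0.17 in Pyr P0 (log2, SD, n = 3 each). It was lower in interneurons at both ages, by -1.87 (4.16e-10) and -1.28 (3.21e-08).

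Of 4 proteases that cut reelin, Adamts3 and Adamts5 were called, in opposite directions between populations. Adamts3, known as a protease that inactivates reelin in the brain, averaged 10.14 ± 0.12 in IN P10 and 11.79 ± 0.07 in Pyr P12, a log2 difference of -1.64 (limma adjusted p = 2.99e-08). At P0 it averaged 10.45 ± 0.27 in IN P0 and 12.79 ± 0.03 in Pyr P0, a difference of -2.34 (1.79e-09), and all 16 of its probe sets were called lower in interneurons at both ages. In Pyr P12 against Pyr P0 the Adamts3 probe set used had -0.998 (2.67e-06), just under 2-fold and not called. There 5 of the 16 probe sets were called lower, and the differences ran from -1.16 to -0.60. Adamts5 was not above background on any array of Pyr P12 or Pyr P0, so its higher level in interneurons is a bound of at least 3.25-fold in IN P10 over Pyr P12 (2.32e-10) and at least 1.78-fold in IN P0 over Pyr P0 (1.94e-07). With age it rose by 1.00 in interneurons (1.15e-06), a value that was under 2-fold, between 0.92 and 0.97, after centring or without replicate A of IN P0 or replicate B or C of IN P10.

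Among 11 kinases and adaptors next to Dab1, Yes1 and Crkl were called. Yes1, a kinase of the Src family, averaged 9.73 ± 0.04 in IN P10 and 10.37 ± 0.12 in IN P0, and 7.53 ± 0.02 in Pyr P12 and 8.89 ± 0.16 in Pyr P0 (log2, SD, n = 3 each). It was higher in interneurons by 2.20 at the older ages (limma adjusted p = 8e-11) and by 1.48 at P0 (6.73e-09), and fell by 1.36 with age in pyramidal cells (5.33e-09). In Pyr P12 Yes1 lay near background, at 7.51 to 7.56 against levels of 7.3 to 7.45. Its differences against Pyr P12 are therefore not exact sizes. Crkl, an adaptor that binds phosphorylated Dab1, fell by 1.01 in Pyr P12 against Pyr P0 (2.23e-09), a value close to the threshold that was -0.98 without replicate A of Pyr P0 or replicate A of Pyr P12 and -1.0 without replicate B of Pyr P0. Fyn and Src, the kinases best known to phosphorylate Dab1, were singled out after their values were seen and were called nowhere. Fyn had a log2 difference of -0.68 in Pyr P12 against Pyr P0 (1.07e-05), and Src of -0.45 in IN P10 against IN P0 (1.73e-06).

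Of 9 genes of the phosphatidylinositol 3-kinase arm, Limk1, the kinase of the actin regulator cofilin, was higher in interneurons by 1.28 at the older ages (limma adjusted p = 1.78e-09), and its age change differed between populations by 1.70 (1.43e-08). Pik3r1, a regulatory subunit of the lipid kinase, was lower in interneurons at P0, at -1.18 (9.03e-09). Of 4 genes of Dab1 turnover, 0 were called in the 4 comparisons of groups by limma or SAM, and all 4 reached an unadjusted p under 0.05 in at least 1 of them. All 4 also had a limma adjusted p under 0.05 in at least 1 comparison, with folds under 2. The shares of all probe sets that did so are not given, here or for the marker lists. These counts are therefore not a result about Dab1 turnover. The largest difference among these 4 genes was -0.79 for Socs7 in IN P10 against Pyr P12 (limma adjusted p = 3.11e-07).

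Of 16 partners in neuronal migration, Dcx, which encodes the microtubule protein doublecortin of young neurons, fell with age in both populations, by 1.06 in interneurons (limma adjusted p = 6.36e-08) and by 1.29 in pyramidal cells (6.11e-09). Pafah1b3, a catalytic subunit of the acetylhydrolase that binds Lis1, fell by 2.37 in Pyr P12 against Pyr P0 (6.1e-13) and was higher in interneurons by 1.55 at the older ages (3.14e-11). Cdk5r2, an activator of the kinase Cdk5, rose by 1.98 in Pyr P12 against Pyr P0 (3.52e-11). Notch1 was higher in interneurons, by 1.08 at the older ages (2.84e-07) and by 1.13 at P0 (3.12e-07).

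Of 3 synaptic partners, Grin2a, the NMDA receptor subunit that increases as synapses mature, rose with age in both populations, by 1.38 in IN P10 against IN P0 (limma adjusted p = 4.33e-07) and by 2.86 in Pyr P12 against Pyr P0 (2.5e-10), and was lower in interneurons at the older ages, at -1.23 (2.07e-06). Dlg4, which encodes the scaffold PSD-95, rose by 1.13 in Pyr P12 against Pyr P0 (3.14e-10).

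The interneuron samples also held more RNA of oligodendrocyte precursors and, at P10, of oligodendrocytes, values to read beside the genes that were higher in IN. Of 5 markers of these cells, 5 were higher in IN at both ages and 2 fell with age in interneurons. Their mean log2 value per array was 9.61 to 10.34 in IN P10 and 10.28 to 10.62 in IN P0, and 7.76 to 7.92 in Pyr P12 and 7.73 to 8.08 in Pyr P0, with all 5 above background on every array. Of 5 measured markers of myelinating oligodendrocytes, Cnp and Mag rose with age in interneurons, by 1.89 (limma adjusted p = 2.13e-07) and 1.84 (6.74e-08), and were higher in interneurons at the older ages, by 2.89 (3.83e-09) and 1.68 (2.22e-07). Cnp was also higher in interneurons at P0, by 1.67 (1.71e-06), and with age in pyramidal cells Mbp and Cnp had log2 differences of 0.58 (8.1e-06) and 0.66 (0.00236), both under 2-fold. The mean log2 value of this list per array was 9.3 to 9.65 in IN P10 and 8.12 to 8.17 in IN P0, and 8.1 to 8.14 in Pyr P12 and 7.71 to 7.82 in Pyr P0, with Mobp above background on no array of IN P0. Their median log2 difference with age in interneurons was 0.96. This is the direction of all 5 other pathway genes called higher there (Clu, Lpl, Lrp1b, Adamts5 and Grin2a). The precursor markers had a median of -0.46, the direction of the 3 called lower there (Thbs1, Lrp6 and Dcx). The part of either list in the values of Reln, Spon1, Thbs1, Lpl, Adamts5, Yes1, Limk1, Pafah1b3 and Notch1 was not tested. Nor was its part in the interneuron age changes of Lrp1b, Clu, Grin2a, Lrp6 and Dcx. Lrp1b was not higher in interneurons, with -0.33 in IN P10 against Pyr P12 and -0.73 in IN P0 against Pyr P0. It also rose with age in pyramidal cells, by 0.86 (limma adjusted p = 4.26e-08), under 2-fold. Of the markers of astrocytes, 1 was called, Aldh1l1, which rose with age in pyramidal cells. Of the markers of microglia, endothelial cells and mural cells, 0 were called by limma or SAM, and 5 of 6, 2 of 5 and 3 of 6 reached an unadjusted p under 0.05 in at least 1 comparison of groups.

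The genes whose log2 values followed each member most closely over the 12 arrays were searched among 3326 genes (3327 for Lrp8 and Vldlr) whose group means spanned over 2-fold. For Reln these were Erbb4 (Pearson's r = 0.997), Lrig3 (0.993), Tmem132c (0.993), Gfpt2 (0.991) and Pde5a (0.99). For Dab1 they were Sox5 (0.988), Pappa2 (0.985), Lmo1 (0.983), Ccbe1 (0.981) and Wnt7b (0.981). The closest to Lrp8 was Tiparp (0.96) and the closest to Vldlr was Kdm7a (0.957). Among the members themselves r was -0.46 for Reln and Dab1, 0.4 for Reln and Lrp8, -0.74 for Reln and Vldlr, 0.22 for Dab1 and Lrp8, 0.32 for Dab1 and Vldlr and 0.15 for Lrp8 and Vldlr. These values describe 12 arrays that fall into 4 groups and share the difference between populations, and carry no test.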

How the data were processed

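RNA of FACS-isolated IN P10, IN P0, Pyr P12 and Pyr P0 cells was measured on 12 arrays. The log2 values were deposited by the authors after RMA, which corrects background, quantile-normalizes the arrays and gives 1 value per probe set. The annotation release, software versions and genome build of that step are not given in the sources used here. Array medians ran from 8.12 to 8.22, and arrays of one group correlated at 0.995 to 0.999. With 3 arrays per group, their number limits the precision.

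Of 28192 probe sets, 22961 had a gene symbol in the platform annotation and were tested, 1321 of them with several symbols and unnamed, and 5231 had none and were left out. Where a gene had several probe sets, the brightest over the 12 arrays stood for it. A model of group means was fitted to all 12 arrays with limma 3.58.1 in R 4.3.3, with no block, 8 residual degrees of freedom and Benjamini-Hochberg adjustment. Where a fold was set against a group with no array above background, a lower bound was given. The arrays are labelled as biological replicates, but whether each came from separate or pooled animals is not given in the sources used here, so p-values measure the spread between these samples.

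The members, lists and rules were chosen with earlier results of these data known. Named genes were the members, other pathway genes called in at least 1 comparison, and the genes most correlated with each member. The methods name SAM, which was an alternative here, next to limma on the groups compared alone, robust eBayes with trend, a block on the replicate letter, filters on probe sets, other scalings and thresholds, and leaving out each array. The self-written scripts were tested on simulated data. Plots were made in Python 3.11.15 with matplotlib 3.10.9. No coordinates of probe sets are given.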

Additional observations from a re-analysis of the deposited data

Results flagged for a closer look

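The age change differed between the populations, by a test of the difference itself (the change in interneurons minus the change in pyramidal cells, in one limma fit, adjusted over all tested probe sets), for 3 of the 4 members. The log2 difference was 1.72 for Reln, 1.37 for Dab1 and -0.51 for Vldlr, the last under 2-fold. For Reln and Dab1 the pyramidal age change was called lower and the interneuron age change was not called.

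Of the 66 other pathway genes, 39 passed the same test at an adjusted p under 0.05, 20 with a positive and 19 with a negative difference. The share of all probe sets passing at an adjusted p alone is not given. Neither this count nor that of the members is therefore a result about the pathway. Of the 66, 7 also had a difference over 2-fold (10.6%, background 4.86%, and 6.79% of the detected probe sets) and are given here. Lpl had 3.34, Limk1 1.70, Pafah1b3 1.54, Adamts5 1.13 and Itga3 1.07, and Cdk5r2 had -1.09 and Grin2a -1.47 on the log2 scale. Adamts5 was above background on no pyramidal array, so the pyramidal age change in its value was not measured above background and the value is no exact difference. Itga3, an integrin subunit reported to bind reelin, was called in none of the comparisons of groups and averaged 9.21 ± 0.12 in IN P10 and 8.47 ± 0.16 in IN P0, and 8.58 ± 0.05 in Pyr P12 and 8.91 ± 0.04 in Pyr P0 (log2, SD, n = 3 each). The ages compared were P10 in interneurons and P12 in pyramidal cells, which cannot be told apart from the population. With 3 arrays per group no search for a single outlying array was made.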

How the results depend on the processing

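Of 452 alternative values of the members, 442 kept their direction and side of the call. Without a fold threshold, calls were added for Lrp8 (-0.48 in interneurons and -0.33 in pyramidal cells with age), Vldlr (-0.32 and 0.19 with age, -0.49 in IN P10 against Pyr P12 and -0.51 for the difference of age changes) and Dab1 (-0.59 in IN P10 against Pyr P12, also at a fold over 1.5). Values near 0 changed sign for Vldlr in IN P0 against Pyr P0 (-0.04 without replicate C of IN P0, range -0.04 to 0.09 over the arrays left out) and Lrp8 in IN P10 against Pyr P12 (-0.01 without replicate A of Pyr P12, range -0.01 to 0.1). The shift of Lrp8 minus Vldlr kept its direction in 28 of 28 values, but between the interneuron ages it ran from -0.21 to -0.06 when arrays were left out (-0.06 without replicate A of IN P10), with exact permutation p up to 0.4.

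The counts of other pathway genes rest on the fold threshold. At a fold over 1.5 they were 10 higher and 11 lower in IN P10 against IN P0, 9 and 13 in Pyr P12 against Pyr P0, 11 and 9 in IN P10 against Pyr P12, 5 and 6 in IN P0 against Pyr P0, and 10 and 9 for the difference of age changes. With no fold threshold they were, higher and lower, 22 and 25 between the interneuron ages, 23 and 25 between the pyramidal ages, 23 and 26 in IN P10 against Pyr P12, 18 and 14 in IN P0 against Pyr P0, and 20 and 19 for the difference of age changes. Shares over all tested probe sets are not given at these thresholds, so the counts show only how they depend on the threshold. The count lower in Pyr P12 against Pyr P0 was 3 to 6 when arrays were left out in turn, with 3 without replicate B of Pyr P0 and without replicate A of Pyr P12. Of 1044 alternative values of the named pathway genes, 15 lost the call, all near 2-fold and given with the genes.

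Replicates of the same letter did not deviate together (4 of 12 pairs over 0.1, r -0.18 to 0.19). With the replicate letter as a block no member's call changed (Dab1 in IN P10 against Pyr P12 -0.59, limma adjusted p = 0.00157). In that fit Lrp8 in IN P0 against Pyr P0 (0.19) had a limma adjusted p of 0.0371, under 0.05 but also under 2-fold. No other probe set of a member could be tried, and SAM was not run for the difference of age changes.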
